A study of Mus musculus with 7 samples.

Results

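Scavenger receptors are a loose group of surface and secreted proteins of myeloid cells that bind modified lipoproteins, microbial surfaces, haemoglobin complexes, dying cells and glycoproteins, and mostly carry them into the cell. The genes described here are Msr1, Marco, Cd36, Scarb1, Cd163, Stab1, Mrc1, Cd5l and Lrp1, together with Cd14, the gene of the co-receptor for bacterial lipopolysaccharide. They were chosen by name, as a set of uptake receptors, with earlier results of these data known. They make up 10 of the 28666 genes in the table. All 10 passed the filter on low counts, which left 17461 genes for testing.

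The study used bone marrow-derived dendritic cells (BMDCs), which are grown in culture from mouse marrow. Marrow from female C57BL/6 mice aged 6 to 8 weeks was cultured for 7 days with GM-CSF at 20 ng/mL and IL-4 at 10 ng/mL, and the BMDCs then shared a Transwell system with mouse colon carcinoma cells of the MC38 line. The study's text places the sequenced BMDCs in co-culture with tumor cells given DON, a glutamine antagonist, for 24 h, whereas a figure legend names both DMSO and DON at 5 µM and the labels give no treatment. Mature and immature BMDCs were separated by flow sorting, and 4 mature and 3 immature libraries were sequenced. The labels give both groups the same cell type and no other genotype, and the markers of this sort are not given in the sources used here, although the study marks mature dendritic cells by CD80 and CD86 in other flow cytometry. The study speaks of independent biological experiments for its data in general, but the labels do not say whether these replicates came from separate cultures or animals, so p-values measure the spread between these libraries, which may be technical.

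Total counts were 61296014, 57359581 and 67973086 in immature replicates 1, 2 and 3. In mature replicates 1, 2, 3 and 4 they were 62285010, 61817255, 54846746 and 60481142. Levels are given in FPKM, in which fragments are scaled by transcript length and library total, which allows genes of different length to be compared. Differences between groups were tested on counts with edgeR's quasi-likelihood test, and a gene was called when its absolute log2 fold change was at least 1 and its Benjamini-Hochberg adjusted p was under 0.05. Fold changes are mature over immature unless stated otherwise.

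Immature cells take up material from their surroundings through such receptors, and dendritic cells are known to lower several routes of uptake as they mature and turn to presenting antigen. Macrophages, which also grow from marrow in the presence of myeloid growth factors, carry many of the same receptors. CD14 has no signalling domain of its own and passes lipopolysaccharide to TLR4 and MD-2, and it is present on monocytes, macrophages and some dendritic cells.

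The labels were first compared with defining genes. Of the 7 mature dendritic cell markers, 6 were called and higher in mature BMDCs, and Lamp3 was at or under 0.08 FPKM in every library. Since the sort markers are not given, some of these genes, such as Cd80 and Cd86, may have served to choose the cells. Here and in the lists that follow, the most abundant gene is the one with the highest mean FPKM over the 7 libraries. Ccr7, a chemokine receptor of migrating dendritic cells and the most abundant of them, had 90.9, 92.0 and 86.5 FPKM in the immature libraries and 1152, 1151, 1283 and 1147 FPKM in the mature ones. Of 5 general dendritic cell genes, 2 were called, Flt3 and Zbtb46, both higher in mature BMDCs. Zbtb46, a transcription factor of classical dendritic cells, had 2.64 ± 0.17 FPKM (SD, n = 3) in immature and 11.8 ± 1.12 FPKM (SD, n = 4) in mature cells. Flt3 did not exceed 0.09 FPKM in immature libraries and lay between 0.75 and 1.14 FPKM in mature ones. Itgax, H2-Ab1 and Cd74, the most abundant of the list, were not called, and Itgax had between 161 and 261 FPKM in the 7 libraries.

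Macrophage markers moved in the other direction. Of 9, 7 were called and lower in mature BMDCs, and Vsig4 and Timd4, markers of tissue-resident macrophages, did not exceed 0.15 FPKM anywhere. The summed FPKM of the list was 612, 630 and 604 in the immature libraries and 112, 108, 126 and 110 in the mature ones, with C1qb, a chain of complement C1q, the most abundant gene. These values move with most of the receptor genes below, and their part in those results was not tested. In bulk RNA, fewer cells of a type and less RNA per cell cannot be told apart.

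Of the 10 genes, 8 were called and all 8 were lower in mature BMDCs. Across all tested genes 23.1% were called in either direction and 9.95% were called lower in mature cells. The 8 were Mrc1, Cd5l, Stab1, Msr1, Lrp1, Cd36, Cd14 and Scarb1, and Marco and Cd163 were not called. For the same 8 genes every mature library lay below every immature library, a pattern found in 26.7% of all tested genes. The median log2 fold change of the 10 genes was -2.09, against 0.05 over all tested genes, a median that moved by 0.11 with upper-quartile factors and by 0.10 with total counts as the scaling.

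**Figure D1:**
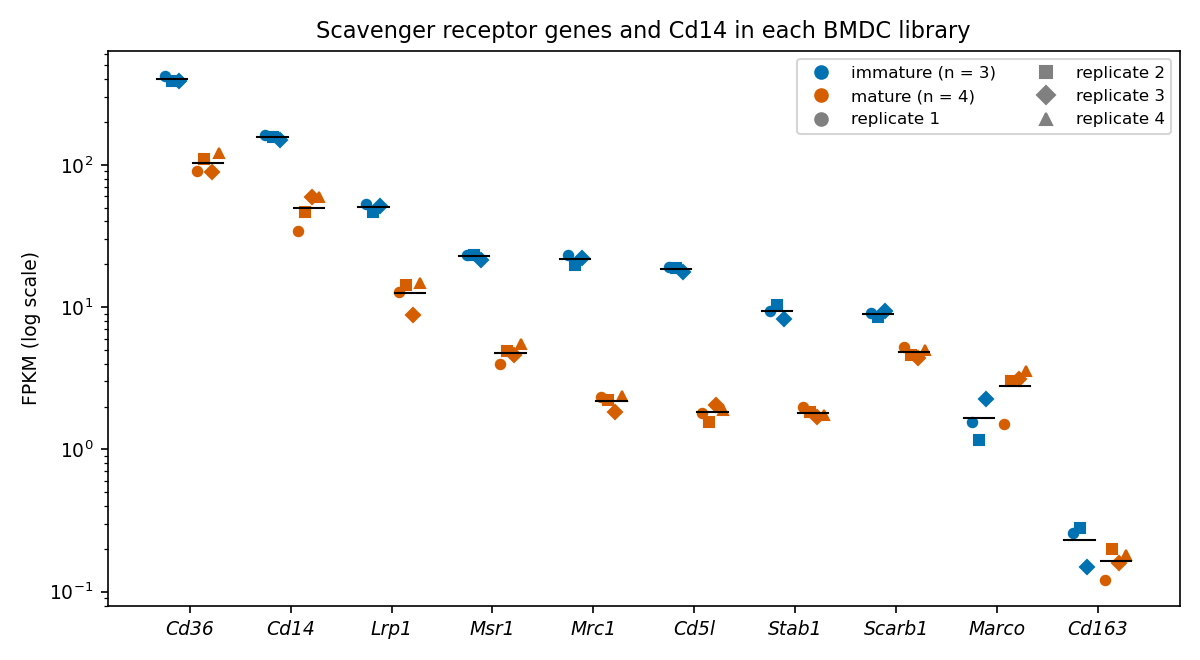
FPKM on a log axis of each gene in the 3 immature (blue) and 4 mature (orange) libraries, with marker shapes for replicate numbers and black lines for group means. The groups are apart for 8 genes and overlap for Marco and Cd163.

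Levels differed widely within the set. In immature BMDCs the order of mean FPKM was Cd36 (400.0), Cd14 (156), Lrp1 (50.3), Msr1 (22.7), Mrc1 (21.8), Cd5l (18.6), Stab1 (9.39), Scarb1 (9.01), Marco (1.66) and Cd163 (0.23). Msr1 and Mrc1 were neighbours whose libraries overlapped, as were Stab1 and Scarb1. In mature BMDCs Cd36, Cd14 and Lrp1 kept the highest mean FPKM, at 102, 49.9 and 12.6. They were followed by Scarb1 (4.83) and Msr1 (4.75), whose libraries overlapped, and then by Marco (2.80), Mrc1 (2.19), Cd5l (1.83) and Stab1 (1.81), each overlapping the next in order.

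Cd36 alone made up most of the signal. Its share of the summed FPKM of the 10 genes was 58.0% ± 0.26 (SD, n = 3) in immature and 55.8% ± 3.62 (SD, n = 4) in mature BMDCs. The sum itself was 690 ± 28.6 FPKM (SD, n = 3) in immature and 183 ± 25.8 FPKM (SD, n = 4) in mature cells. Without Cd36 the sums were 290 ± 10.9 and 80.9 ± 12.9 FPKM, so the lower total did not rest on that gene.

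Msr1 (ENSMUSG00000025044, chromosome 8 from 39581685 to 39642673) encodes scavenger receptor A, a trimeric receptor for modified lipoproteins and bacterial surface molecules. It had 23.2, 23.4 and 21.4 FPKM in immature replicates 1, 2 and 3 and 3.99, 4.90, 4.59 and 5.53 FPKM in mature replicates 1 to 4. The immature libraries lay close together and all 4 mature libraries were far below them. Msr1 fell, with a log2 fold change of -2.36 (standard error, SE, 0.11; edgeR adjusted p = 9.7e-07), which makes it 5.13-fold higher in immature cells.

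Marco (ENSMUSG00000026390, chromosome 1 from 120474538 to 120505024) encodes another class A receptor, known from macrophages that clear bacteria and particles. Its FPKM was 1.55, 1.17 and 2.27 in the immature libraries and 1.51, 3.03, 3.10 and 3.55 in mature replicates 1 to 4. Mature replicate 1 lay within the immature range, and the other 3 mature libraries lay above it. The log2 fold change was 0.63 (SE 0.34, 95% interval -0.15 to 1.41, edgeR adjusted p = 0.165), so Marco was not called. With mature replicate 1 as the sole mature library it was -0.26 (edgeR adjusted p = 0.634), a fit in which the immature libraries alone give the spread and the lone mature library is assumed to vary like them. Without that library the log2 fold change was 0.84 (edgeR adjusted p = 0.032), short of the criterion on fold change. Over all alternatives the adjusted p of Marco ran from 0.0318 to 1.0.

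The same 3 mature libraries carried transcripts of heart muscle. The summed FPKM of 8 heart muscle genes was 1.82, 1.97 and 1.92 in the immature libraries, 12.3 in mature replicate 1 and 266, 280 and 262 in mature replicates 2, 3 and 4. Of the sum in mature replicate 1, 11.2 FPKM came from Tnni3, which also had the highest FPKM of the list in the immature libraries, at 1.33, 1.64 and 1.38. Mb, the gene of myoglobin and the most abundant over the 7 libraries, had 0.18 FPKM in mature replicate 1 and 71.1, 69.8 and 70.9 FPKM in the other mature libraries. All 8 genes of the list were called and higher in mature cells. The part of these transcripts in the pattern of Marco was not tested.

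Cd36 (ENSMUSG00000002944, chromosome 5 from 17781690 to 17888801) encodes a class B receptor for oxidised lipoproteins, long-chain fatty acids and thrombospondin. It had 420.6, 388.9 and 390.6 FPKM in the immature libraries and 89.8, 110, 88.3 and 121 FPKM in mature replicates 1 to 4. No mature library came near the immature range. Cd36 fell, and its log2 fold change was -2.08 (SE 0.11, edgeR adjusted p = 1.8e-06). Heart muscle also transcribes Cd36. Mature replicate 1, the mature library with the lowest sum of heart muscle genes, gave a log2 fold change of -2.26 against the 3 immature libraries. By mean FPKM, Cd36 ranked 96 among the 28666 genes in immature and 445 in mature BMDCs.

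Scarb1 (ENSMUSG00000037936, chromosome 5 from 125277087 to 125341094) encodes SR-B1, the class B receptor through which cells take cholesteryl esters from high-density lipoprotein. The immature libraries had 9.12, 8.46 and 9.45 FPKM, and the mature ones 5.28, 4.62, 4.41 and 5.01 FPKM. The groups did not overlap, but the difference was the smallest among the called genes. Scarb1 fell with a log2 fold change of -1.01 (SE 0.09, 95% interval -1.21 to -0.81, edgeR adjusted p = 2.8e-05). The interval includes the criterion of -1, and the call was lost in 12 of 19 alternatives, among them DESeq2, at -0.98, and each of the fits without immature replicate 3 (-0.95), mature replicate 2 (-0.96) or mature replicate 3 (-0.97).

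Cd163 (ENSMUSG00000008845, chromosome 6 from 124304656 to 124330527) encodes the receptor by which macrophages clear haemoglobin bound to haptoglobin. It was barely transcribed, with 0.26, 0.28 and 0.15 FPKM in the immature libraries and 0.12, 0.20, 0.16 and 0.18 FPKM in the mature ones. These levels rest on 60 to 98 counts per immature and 45 to 74 counts per mature library, and the groups overlapped. The log2 fold change was -0.57 (SE 0.33, 95% interval -1.32 to 0.17, edgeR adjusted p = 0.186), an interval that holds both 0 and a change past the criterion.

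Cd5l (ENSMUSG00000015854, chromosome 3 from 87357881 to 87371073), also called AIM, encodes a secreted protein of macrophages built from scavenger receptor cysteine-rich domains, the domain type that also makes up Cd163. Its FPKM was 19.1, 18.9 and 17.7 in immature and 1.79, 1.56, 2.05 and 1.9 in mature libraries. The gap between the groups was wide and both were tight. Cd5l was 10.9-fold higher in immature cells, and its log2 fold change was -3.44 (SE 0.13, edgeR adjusted p = 4.4e-07). By mean FPKM the gene moved from rank 2353 to rank 9843.

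Stab1 (ENSMUSG00000042286, chromosome 14 from 31139013 to 31168641) encodes stabilin-1, a large receptor of macrophages and sinusoidal endothelium that takes up SPARC and modified lipoproteins and sorts cargo to lysosomes. It had 9.46, 10.4 and 8.31 FPKM in the immature libraries and 2.00, 1.82, 1.68 and 1.75 FPKM in the mature ones. All mature libraries lay within a narrow band well below the immature ones. Stab1 fell, and its log2 fold change was -2.47 (SE 0.09, edgeR adjusted p = 3.8e-07). Its last 112 bases overlap Nt5dc2 on the other strand, and since strand use in the counting is not given in the sources used here, reads from that overlap cannot be told apart.

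Mrc1 (ENSMUSG00000026712, chromosome 2 from 14229392 to 14332057) encodes the mannose receptor CD206, which binds mannosylated glycoproteins and is widely used as a marker of alternatively activated macrophages and of immature dendritic cells grown with IL-4. It had 23.3, 19.7 and 22.3 FPKM in the immature libraries and 2.34, 2.21, 1.83 and 2.36 FPKM in the mature ones. The lowest immature library was far above the highest mature library. Mrc1 fell, and its log2 fold change was -3.43 (SE 0.10, edgeR adjusted p = 1.8e-07), which makes it 10.7-fold higher in immature cells. In rank by mean FPKM it went from 2023 to 9314.

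Lrp1 (ENSMUSG00000040249, chromosome 10 from 127538161 to 127621148) encodes a very large endocytic receptor of the LDL receptor family that binds apolipoprotein E, protease-inhibitor complexes and calreticulin. The immature libraries had 53.1, 46.4 and 51.3 FPKM, and mature replicates 1 to 4 had 12.8, 14.2, 8.73 and 14.8 FPKM. Mature replicate 3 was the lowest, and all 4 lay below the immature range. Lrp1 fell, and its log2 fold change was -2.11 (SE 0.15, edgeR adjusted p = 8.0e-06), and the value without mature replicate 3 was -1.97.

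Cd14 (ENSMUSG00000051439, chromosome 18 from 36725067 to 36726798) encodes the lipid-anchored co-receptor for lipopolysaccharide and other microbial ligands. It had 163, 156 and 149 FPKM in the immature libraries and 34.0, 46.8, 59.6 and 59.1 FPKM in mature replicates 1 to 4. The mature libraries were lower throughout but spread more than the immature ones, with coefficients of variation of 24.3% and 4.61%. Cd14 fell, and its log2 fold change was -1.74 (SE 0.20, edgeR adjusted p = 1.3e-04). Mature replicate 1 as the sole mature library gave -2.31, and the fit without it gave -1.59. The other mature libraries, all higher in Cd14 than mature replicate 1, are those with the high sums of heart muscle genes. The part of those transcripts in the values of Cd14 was not tested.

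Mature replicate 3 stood at opposite ends for Lrp1 and Cd14. The longest annotated transcript is 14.9 kb for Lrp1 and 1.64 kb for Cd14. On log2 CPM, counts at a common library total after TMM scaling, mature replicate 3 differed from the mean of the other mature libraries by -0.54 for Lrp1 and 0.48 for Cd14. Across 17436 tested genes the log2 ratio of that library to the other mature libraries had a Spearman's rho of -0.41 with transcript length, a description over genes that share the same libraries and are not independent replicates. The part of transcript length in the values of Lrp1 and Cd14 was not tested.

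**Figure D2:**
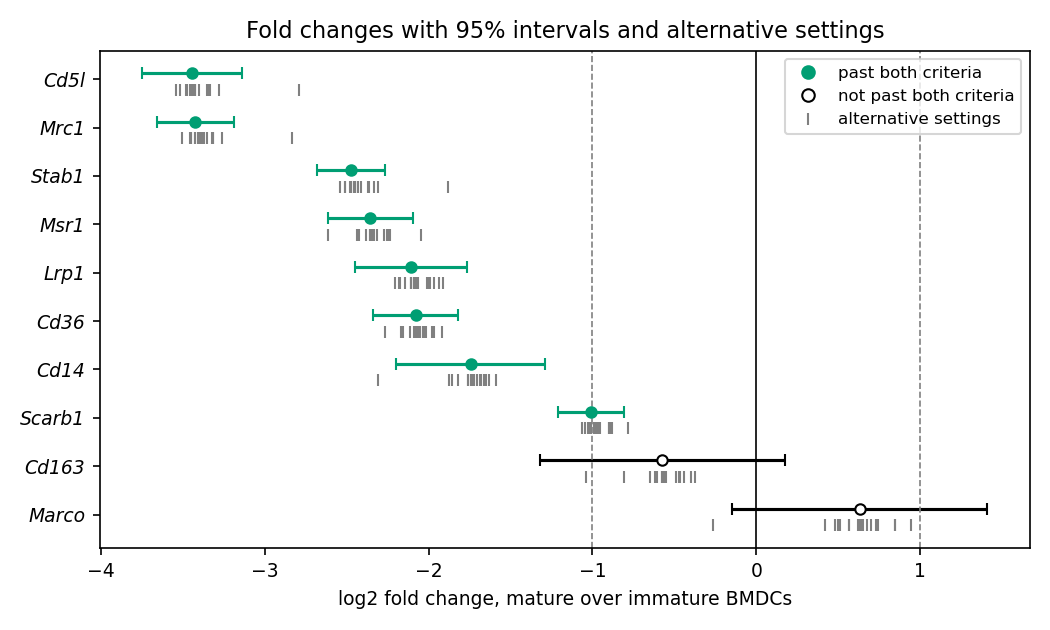
Log2 fold change (mature over immature, edgeR) of each gene with its 95% interval, and the values under the alternative settings as grey ticks. Filled points passed both criteria and open points did not. Dashed lines mark the criterion of 1 in each direction, which the interval of Scarb1 includes.

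Fold changes were graded. Mrc1 and Cd5l were lowest, at -3.43 and -3.44. Stab1, Msr1, Lrp1 and Cd36 lay between -2.47 and -2.08, followed by Cd14 at -1.74 and Scarb1 at -1.01. The intervals of Mrc1 and Cd5l overlapped each other but no other gene, and those of Stab1, Msr1, Lrp1 and Cd36 overlapped one another. The interval of Cd14 overlapped those of Msr1, Lrp1 and Cd36. The 2 class B receptors differed in level and in fold change, with Scarb1 at a fraction of the FPKM of Cd36 in both groups.

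Other genes of the same pathways were taken from 10 lists, which were also chosen with earlier results of these data known. Of 109 genes, 104 were tested, 8 were called higher, 33 lower and 63 were not called. Over all tested genes 13.2% were called higher and 9.95% lower. Each list is described below by its counts and its median, beside the median of 0.05 over all tested genes.

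Among 13 other scavenger receptors, 4 were called higher and 2 lower, with a median log2 fold change of 0.06. Cd68, the lysosomal macrosialin and the most abundant of them over the 7 libraries, though below Cxcl16 in mature cells, fell from 297 ± 6.82 FPKM (SD, n = 3) to 59.5 ± 4.76 FPKM (SD, n = 4), with a log2 fold change of -2.42 (edgeR adjusted p = 4.9e-07). Colec12, a collectin with a scavenger function, fell with -1.76 (edgeR adjusted p = 3.2e-04) and stayed under 1 FPKM. Cxcl16, a transmembrane chemokine that also binds oxidised lipoprotein, rose from 51.3 ± 1.46 to 149 ± 11.1 FPKM with a log2 fold change of 1.44 (edgeR adjusted p = 1.1e-05).

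Scara3 rose with the greatest fold change of that list among the called genes, at 3.75 (edgeR adjusted p = 5.1e-06), from 0.12 ± 0.02 to 1.86 ± 0.42 FPKM. Ager, the receptor for advanced glycation end products, and Ssc5d rose with log2 fold changes of 1.40 (edgeR adjusted p = 2.6e-03) and 1.15 (edgeR adjusted p = 4.2e-03). Of the scavenger receptors outside the set, 4 were thus called higher, 2 were called lower and 7 were not called. Every called gene of the set was lower, and the difference between the list and the set was not tested.

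In the mannose receptor family of 3 further genes, Ly75 was called higher and the others were not called. The median of 1.5 is the value of Pla2r1, which did not exceed 0.04 FPKM in any library, and Mrc2 had a log2 fold change of -0.15. Ly75 encodes DEC-205, an endocytic receptor of dendritic cells that delivers antigen for presentation. It had 9.50, 9.44 and 9.36 FPKM in the immature libraries and 36.8, 39.4, 20.98 and 37.4 FPKM in the mature ones. Ly75 rose, and its log2 fold change was 1.72 (SE 0.18, edgeR adjusted p = 7.6e-05). This was opposite to the fall of Mrc1, its relative. Mature replicate 3 was the lowest of the mature libraries.

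The LDL receptor family list held 14 further genes, of which 12 were tested and 2 were called, both lower, with a median of -0.40. Lrp12 fell from 54.5 ± 4.01 to 9.44 ± 1.80 FPKM, with a log2 fold change of -2.64 (edgeR adjusted p = 1.2e-06). Lrpap1, the chaperone that keeps Lrp1 and its relatives from binding ligands on their way to the surface, fell from 83.2 ± 2.13 to 34.7 ± 4.63 FPKM, with -1.36 (edgeR adjusted p = 3.3e-05).

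Partners and adaptors of CD14 had 7 of 15 tested genes called, all lower, with a median of -0.93. Cd180, a TLR4-like receptor, fell from 12.9 ± 1.86 to 1.93 ± 0.28 FPKM, with a log2 fold change of -2.85 (edgeR adjusted p = 7.9e-07). Tlr6 fell with -2.66 (edgeR adjusted p = 1.2e-05) and Tlr4, the signalling receptor that CD14 loads, with -1.91 (edgeR adjusted p = 2.5e-05). Tlr1, Lbp, Ticam2 and Tlr2 made up the rest of the called genes.

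Not every part of the complex was lower. Ly96, which encodes MD-2, had 3.75, 3.91 and 3.89 FPKM in the immature libraries and 4.87, 7.00, 7.67 and 6.93 FPKM in the mature ones, above them in all 4, with a log2 fold change of 0.68 that did not reach the criterion on fold change. Irak1, the most abundant of the list by mean FPKM over the 7 libraries, was not called either, with 0.23. The adaptor Myd88 had -0.92, also short of the criterion.

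Of 11 receptor ligands, 9 were tested and 3 were called, all lower, with a median of -0.78. Thbs1, the gene of thrombospondin-1, a ligand of CD36, had 657, 584 and 575 FPKM in the immature libraries and 79.4, 92.0, 76.8 and 119 FPKM in the mature ones, a log2 fold change of -2.83 (edgeR adjusted p = 1.5e-06). Lpl, the gene of lipoprotein lipase, fell with -1.63 (edgeR adjusted p = 1.1e-06). Apoe, a ligand of LRP1, fell with -1.48 (edgeR adjusted p = 8.4e-04).

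Shedding releases several of these receptors from the surface by cutting off their outer part. Of 6 genes in that list, Adam10, a membrane protease, was called lower, from 52.1 ± 2.24 to 18.1 ± 4.4 FPKM, with a log2 fold change of -1.65 (edgeR adjusted p = 6.1e-05). Timp3, an inhibitor of such proteases, was called higher, from 0.22 ± 0.02 to 3.66 ± 1.22 FPKM, with 3.91 (edgeR adjusted p = 3.6e-06). The median of the list was -0.41, and Adam17 was not called, at -0.64. The number called lower was 2 in the fits without immature replicate 2 or without mature replicate 4.

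Of 18 genes of the endocytic machinery, 17 were tested and 2 were called, both lower, with a median of -0.26. The number called lower was 1 in the fit without mature replicate 2 and 3 in the fit without mature replicate 4. Dab2, an endocytic adaptor, fell with a log2 fold change of -1.39 (edgeR adjusted p = 2.6e-05). Clta, a clathrin light chain and the most abundant of the list, had 147 ± 6.68 and 169 ± 30.6 FPKM and was not called.

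Called genes that handle lipid after uptake lay on both sides. Of 14 tested, 2 were called higher and 6 lower, with a median of -0.57. Pparg, the nuclear receptor that drives Cd36 transcription in macrophages, fell from 5.04 ± 0.11 to 0.98 ± 0.13 FPKM, with a log2 fold change of -2.47 (edgeR adjusted p = 2.4e-06). Lipa, the gene of lysosomal acid lipase, fell with -2.30 (edgeR adjusted p = 1.5e-06), and Soat1, which encodes an enzyme that esterifies cholesterol, with -2.17 (edgeR adjusted p = 2.5e-07).

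The fatty acid binding protein genes Fabp4 and Fabp5 rose with log2 fold changes of 1.82 (edgeR adjusted p = 3.9e-05) and 1.61 (edgeR adjusted p = 7.4e-05). Npc2, the cholesterol carrier of the lysosome and the most abundant gene of the list over the 7 libraries, had 158 ± 5.30 and 305 ± 57.7 FPKM, close to the 306 ± 53.5 FPKM of Fabp5 in mature cells, with a log2 fold change of 0.85 that did not reach the criterion. The cholesterol exporter genes Abca1 and Abcg1 were not called, at 0.13 and -0.26.

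In the list for haem and iron, 5 of 7 genes were called, all lower, with a median of -1.29. Slc40a1, the iron exporter ferroportin, fell with a log2 fold change of -1.69 (edgeR adjusted p = 4.5e-05), and Hmox1, which breaks down haem, with -1.57 (edgeR adjusted p = 4.1e-05). Slc11a1 fell with -1.36 (edgeR adjusted p = 5.5e-05). Ftl1, the ferritin light chain gene, was the most abundant, at 4585 ± 263 and 2004 ± 346 FPKM, and fell with -1.29 (edgeR adjusted p = 2.0e-04), and Fth1 fell with -1.07 (edgeR adjusted p = 1.3e-03).

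Transcription factors known to act on myeloid receptor genes had 5 of 8 called, all lower, with a median of -1.25. Klf4 fell with a log2 fold change of -2.47 (edgeR adjusted p = 1.0e-05) and Cebpb with -2.10 (edgeR adjusted p = 3.0e-05). Cebpb was the most abundant over the 7 libraries, but in mature cells its mean of 37.5 FPKM was below those of Stat6 (58.6) and Spi1 (51.9). Maf and Nfe2l2 fell with -1.33 (edgeR adjusted p = 4.6e-03) and -1.18 (edgeR adjusted p = 3.8e-06). Spi1, the gene of PU.1, had -0.83 and Stat6, through which IL-4 signals, -0.03, and neither was called.

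**Figure D3:**
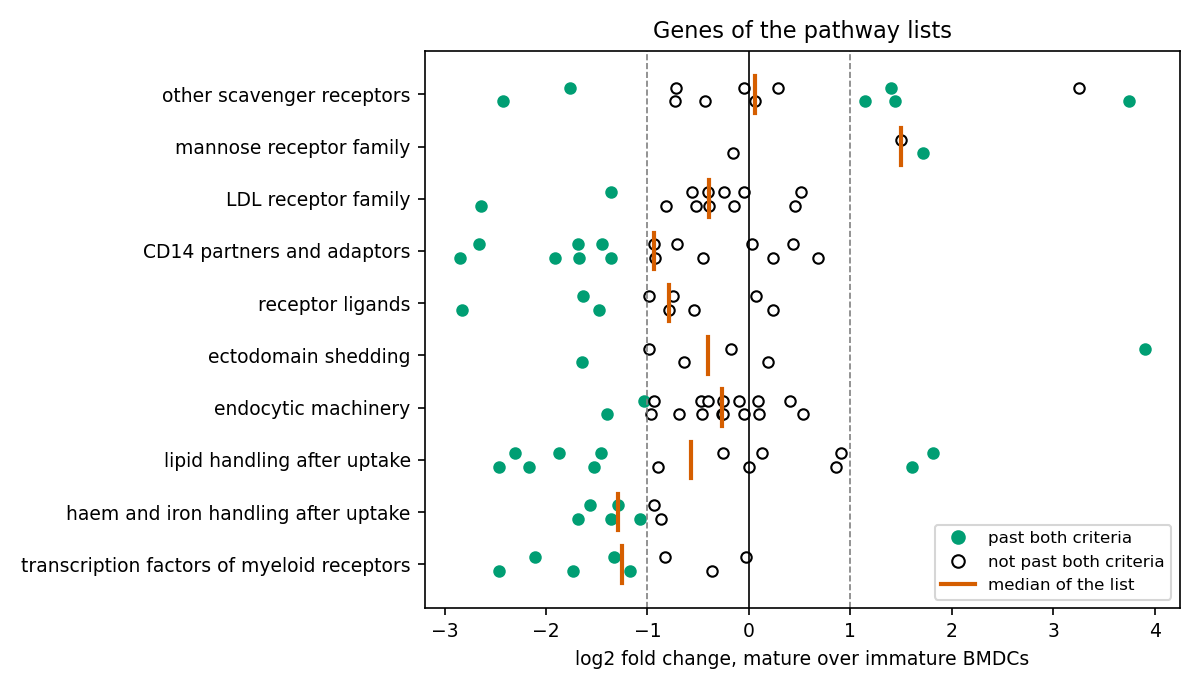
Log2 fold change (mature over immature, edgeR) of the 104 tested genes of the 10 pathway lists, 1 point per gene, filled where both criteria were passed. Orange bars are list medians and dashed lines mark the criterion of 1 in each direction. Called genes are lower in most lists, and on both sides in the lists of other scavenger receptors, ectodomain shedding and lipid handling.

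Marker genes of further cell types were compared by summed FPKM per library. Monocyte genes had 127, 117 and 123 FPKM in the immature libraries and 23.0, 24.2, 23.7 and 27.3 FPKM in the mature ones, and 3 of 5 genes, Ccr2, Spn and Fcgr4, were called lower. Ccr2 had the highest mean over the 7 libraries and went from 95.6 ± 6.21 to 9.78 ± 2.41 FPKM. Ly6c2 was not called, at 10.6 ± 0.81 and 9.81 ± 3.38 FPKM, and exceeded Ccr2 in mature replicates 2, 3 and 4. The part of the monocyte genes in the lower level of Cd14, a gene that monocytes also transcribe, was not tested. Neutrophil genes summed to between 1.51 and 4.21 FPKM in all 7 libraries, led by S100a8, the 1 gene of that list called, lower in mature cells, and lymphocyte genes to at most 0.30 FPKM, led by Cd3g.

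Mast cell and basophil genes summed to between 0.70 and 1.00 FPKM in immature and between 3.58 and 5.16 FPKM in mature libraries. Kit was the most abundant and the only gene of this list that was called. It had 0.58, 0.63 and 0.44 FPKM in the immature and 4.41, 4.44, 2.94 and 4.44 FPKM in the mature libraries. No other gene of the list exceeded 0.46 FPKM in any library. Endothelium of some vessels transcribes Stab1, and 6 endothelial genes summed to 4.79, 4.84 and 4.69 FPKM in the immature and 2.36, 5.45, 4.61 and 5.23 FPKM in the mature libraries, led by Pecam1. The 4 endothelial genes that were called, Cdh5, Tie1, Tek and Cldn5, were all higher in mature cells and did not exceed 0.71 FPKM. In mature replicate 1 none of them exceeded 0.1 FPKM. Cdh5 had 0.05 FPKM there and 0.58, 0.71 and 0.59 FPKM in mature replicates 2, 3 and 4, the libraries with the heart muscle transcripts. Epithelial genes summed to between 13.8 and 21.6 FPKM, led by Cdh1. Epcam was called higher and did not exceed 0.72 FPKM in any library. The other 4 genes, Krt8, Krt18, Krt19 and Cdh1, were not called, with log2 fold changes of -0.57, -0.53, -0.79 and -0.10.

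Red cell genes summed to at most 0.31 FPKM in immature libraries and to 1.48, 4.06, 4.62 and 4.61 FPKM in the mature ones, led by Hbb-bt. Adipocyte genes, of which Adipoq and Plin1 were measured, reached at most 0.07 FPKM in any library.

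Since 8 of the genes were lower together, the sequence before their starts was read from the RefSeq promoter table (GRCm38.p6). It had entries for 7 of the 10 genes, Marco, Cd36, Cd163, Cd5l, Stab1, Mrc1 and Lrp1, and none for Msr1, Scarb1 and Cd14. The RefSeq starts of Cd36 and Mrc1 lie inside the genes as the table delimits them, so the whole window of Cd36 and the last bases of that of Mrc1, from 14229392 on, do too. The 250 bases before each RefSeq start were searched on both strands for 5 motifs of factors that act in myeloid cells or at gene starts.

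The core bound by PU.1, GAGGAA, was found for Marco, Cd5l, Stab1 and Mrc1, that is 4 of 7 genes, and in 23.3% of all 32851 windows. The short MAF motif TGCTGA was found for Cd36, Cd5l and Stab1, and in 16.1% of all windows. The AP-1 motif TGANTCA, the TATA box TATAAA and the NF-κB motif were found for 0 of 7 genes, and in 6.75%, 12.4% and 7.25% of all windows. A match is a description of letters in a window and not a binding site, and Marco holds the PU.1 core without having been called.

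The windows of the 3 genes that fell and hold the PU.1 core are given here 5′ to 3′ along the gene, with the core in capitals, as GAGGAA or, where it lies on the other strand, as its complement TTCCTC. Mrc1 holds 3 matches, starting 180, 167 and 35 bases before the RefSeq start, Cd5l 1 at 66 bases and Stab1 1 at 30 bases. The windows are chr2:14229164-14229413 on the plus strand for Mrc1, chr3:87357631-87357880 on the plus strand for Cd5l and chr14:31168642-31168891 on the minus strand for Stab1.
Mrc1: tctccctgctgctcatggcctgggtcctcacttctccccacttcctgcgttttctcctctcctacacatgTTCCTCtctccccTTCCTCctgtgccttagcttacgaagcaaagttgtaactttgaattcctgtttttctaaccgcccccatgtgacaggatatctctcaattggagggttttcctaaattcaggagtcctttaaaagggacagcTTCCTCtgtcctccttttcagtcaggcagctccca
Cd5l: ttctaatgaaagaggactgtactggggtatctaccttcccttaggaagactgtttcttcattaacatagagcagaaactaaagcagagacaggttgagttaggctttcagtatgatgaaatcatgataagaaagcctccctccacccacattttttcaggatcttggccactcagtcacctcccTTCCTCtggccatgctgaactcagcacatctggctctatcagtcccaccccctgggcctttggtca
Stab1: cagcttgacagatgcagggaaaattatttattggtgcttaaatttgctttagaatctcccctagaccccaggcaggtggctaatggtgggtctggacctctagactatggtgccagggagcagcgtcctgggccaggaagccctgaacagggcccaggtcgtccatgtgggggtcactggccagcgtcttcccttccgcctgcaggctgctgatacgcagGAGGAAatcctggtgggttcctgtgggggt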

How the data were processed

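RNA of 3 immature and 4 mature BMDC libraries was sequenced with paired reads of 150 bases. Counts, in whole numbers for each gene, were deposited by the authors together with FPKM values, which scale fragments by transcript length and library total. The submitters' processing notes name cutadapt 1.9, HISAT2 2.2.1, StringTie 2.1.6, DESeq2, edgeR and the build mm9, without roles. The start and end of all 10 genes in the table equal those of GENCODE M21 on GRCm38, as do 90.4% of the 28588 table genes found there, so coordinates are given as GRCm38.

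Genes were matched by symbol, each to 1 gene ID. The members and lists were chosen with earlier results of these data known. The test was run on the counts with edgeR 4.0.16 in R 4.3.3 (filterByExpr, TMM, quasi-likelihood test on all 7 libraries) and p-values were adjusted over all tested genes by the Benjamini-Hochberg method. The criteria on fold change and adjusted p were those of the study. The standard error is the absolute log2 fold change divided by the square root of F, and 95% intervals use the test's degrees of freedom.

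Named genes were all members, up to 3 called genes per pathway list with the largest absolute log2 fold change whose groups did not overlap and whose higher group had a mean FPKM of at least 1, the gene of each list with the highest mean FPKM over the 7 libraries, and each gene of a count of 5 or fewer. Others, such as Tnni3, Mrc2, Pla2r1, Tlr1, Tlr2, Lbp, Ticam2, Ly96, Myd88, Adam17, Abca1, Abcg1, Spi1, Stat6 and further marker genes, were named after their values were seen. Elane, Ncr1, Cfd and Lep of the marker lists were not analysed here, and some genes of the lists are counted but not reported here by name. Alternatives used DESeq2 1.42.0, limma 3.58.1, other filters and scalings, a replicate block and fits without libraries. Total counts were 54846746 to 67973086, and tests were tested on simulated data. Python 3.11.15 and matplotlib 3.10.9 were used for summaries and figures.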

Additional observations from a re-analysis of the deposited data

Results flagged for a closer look

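Over the 4 mature libraries, 32 values were compared (the CPM of the 10 genes and the summed FPKM of 22 lists), and in 4 of them 1 library lay far from the others. Chance flags about 1 in 20 independent groups, or 1.6 of 32. The values compared here share the same libraries and are not independent, so that number is only a rough guide. None of the 4 was the CPM of a single scavenger receptor gene or of Cd14. The value given is the distance from that library to its closest neighbour as a share of the whole range.

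Mature replicate 3 stood apart in the summed FPKM of the mannose receptor family (0.868), where it was lowest at 21.3 FPKM, of lipid handling genes (0.933), where it was highest at 978 FPKM, and of mature dendritic cell markers (0.902), where it was highest at 1969 FPKM. The FPKM of all genes also summed highest in mature replicate 3, at 381707. These totals were 329247, 332767 and 337706 in mature replicates 1, 2 and 4, and their part in the list sums was not tested. Mature replicate 1 stood apart in the summed FPKM of heart muscle genes (0.931), at 12.3 FPKM. The groups of 3 immature libraries were not compared in this way.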

How the results depend on the processing

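Of the 187 values of single genes under alternatives, 174 kept their direction and their side of the criteria. Msr1, Cd36, Stab1, Mrc1, Cd5l, Cd14 and Lrp1 were called and lower in all 19 alternatives, and Cd163 in none of the 16 in which it was tested. It was not tested where an FPKM of at least 1 in 3 libraries was required. Between 7 and 8 of the 10 genes were called in each alternative.

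Scarb1 lost its call with DESeq2 (-0.98), limma on log2(FPKM + 1) (-0.78) and log2(FPKM + 0.1) (-0.89), no filter (-0.99), an FPKM of at least 1 in 3 libraries (-0.97), total counts (-0.90), upper-quartile factors (-0.90), mature replicate 1 alone (-0.88), and glmTreat, which tests against a log2 fold change of 1 (-1.01, edgeR adjusted p = 0.836). In each of these but glmTreat the log2 fold change was short of 1. Without each library in turn it ran from -1.07 to -0.95. Over all alternatives its adjusted p ran from 6.6e-18 to 0.836. Marco reversed to -0.26 with mature replicate 1 alone, and without each library in turn it ran from 0.42 to 0.94. The cause was not tested.

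The number of genes called, 4037 in all 7 libraries, was 1768 with limma on log2(FPKM + 1), 2561 on log2(FPKM + 0.1) and 2665 after the FPKM filter, all 3 with 11758 genes tested. It was 2236 with glmTreat and 8053 without the criterion on fold change, under which 76 in place of 41 pathway genes were called.

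Same-numbered libraries of the groups had correlations of their deviations of 0.03, -0.001 and 0.01. Whether they shared a culture or an animal is not given. These correlations cannot decide it, because other differences between the libraries also enter the deviations. With the replicate block, 3616 genes, 44 pathway genes and 8 of the 10 genes were called. Of the endocytic machinery, 4 genes in place of 2 were called lower with that block. Fits on mature replicates 2 and 4 alone were added after seeing the data and called 8 of the 10 genes and 4215 genes in all. Depth limits Cd163 most, with 45 to 98 counts per library.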
